A study of Mus musculus with 26 samples.

Results

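Lpl, Lipc, Angptl4, Gpihbp1, Cd36 and Vldlr encode 6 proteins that hydrolyse the fat of circulating lipoproteins, help or inhibit the enzyme that does so, or take lipid up into cells. They were followed in mouse livers that lacked, by label, 1 of 2 components of the circadian clock. The genes were found by their symbol in the deposited tables, where they made up 6 of 22322 symbols and 13 of 46585 transcripts. Each gene is given by its best expressed transcript, a transcript chosen by its mean level over the 20 libraries. The transcripts were ENSMUST00000015712 (Lpl), ENSMUST00000034731 (Lipc), ENSMUST00000002360 (Angptl4), ENSMUST00000023243 (Gpihbp1), ENSMUST00000165232 (Cd36) and ENSMUST00000165761 (Vldlr). That Lpl differed between livers labelled Bmal1 knockout and control livers was known before the genes were chosen, and Lpl was selected on that difference. Its values in those comparisons are therefore a description and carry no test.

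Lipoprotein lipase (Lpl) hydrolyses the triglyceride of circulating lipoproteins on the surface of capillaries, mainly in fat, heart and muscle, and adult hepatocytes normally make little of it. Gpihbp1 is the endothelial protein that carries the enzyme across capillary cells and anchors it there, and Angptl4 is a secreted inhibitor that inactivates it. The liver has its own lipase of the same family, hepatic lipase (Lipc), while Cd36 takes fatty acids into cells and Vldlr is a receptor for triglyceride-rich lipoproteins.

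The Bmal1 experiment compared livers of Bmal1 liver-specific knockout mice with those of wild-type C57BL/6 controls, at CT12 and CT0 (n = 3 per group, 12 libraries). The Nr1d1 experiment compared mice labelled Nr1d1 knockout with C57BL/6 controls at the same times (n = 2 per group, 8 libraries). Bmal1, listed as Arntl, encodes an activator of the clock, and Nr1d1 encodes the repressor REV-ERBα. All mice were 8 weeks old, had been kept under 12 h of light and 12 h of dark, and spent the last 2 days in darkness. CT0 is defined by the labels as lights-on, and CT12 is by convention 12 h later. The promoter that drives the liver-specific deletion is not stated in the labels. The 6 further libraries, from 4C experiments, were not analysed here.

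Values are RPKM, a read density per kilobase of transcript scaled to sequencing depth, with 1 library per liver. Differences are on the scale log2(RPKM + 0.5), which understates the change of genes with low RPKM, and are given with their standard error (SE) from a limma fit across all genes. A gene was called when its adjusted p lay under 0.05. The p-values measure the spread between these livers only.

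All 10 hepatocyte markers were above 0 in every group. Arntl was higher in livers labelled Bmal1 knockout than in control livers at CT12 (log2 1.55 ± 0.16, adjusted p = 6.63e-05, limma). It was lower at CT0 (-1.27 ± 0.16, adjusted p = 0.00191, limma). Its mean in control livers was 1.05 RPKM at CT12 and 15.9 RPKM at CT0. In livers labelled knockout it was 3.99 RPKM at CT12 and 6.37 RPKM at CT0. The direction thus differed between the times and does not settle the label. CT12 minus CT0 for Arntl was -0.61 ± 0.16 in livers labelled knockout and -3.43 ± 0.16 in control livers. These time changes differed by 2.82 ± 0.22 (adjusted p = 0.000149, limma), and their bearing on the label was not tested. Nr1d1 RNA did not bear out the labels of the Nr1d1 experiment. In replicate 1, Nr1d1 was 1.55 higher on the log2 scale in the liver labelled knockout at CT12 and 2.92 higher at CT0. In replicate 2 the differences were -0.23 and 0.57. Each gene was also read in the other experiment. Nr1d1 was lower in livers labelled Bmal1 knockout at CT0 (-1.94 ± 0.37, adjusted p = 0.0253, limma). At CT12 the difference was -0.56 ± 0.37 and was not called. Arntl was higher in livers labelled Nr1d1 knockout at CT12 (3.21 ± 0.31, adjusted p = 0.0395, limma). At CT0 it differed by -0.56 ± 0.31 and was not called. CT12 minus CT0 for Arntl was -0.03 ± 0.31 in livers labelled Nr1d1 knockout and -3.79 ± 0.31 in their controls. The difference between these changes was not called (adjusted p = 0.167, limma). The bearing of these values of both genes on the labels was not tested. The values of both genes cover the whole transcript, so a partial deletion would not be seen in them. In both experiments "knockout" therefore stands for the label, and each direction below is between labels. Among the Nr1d1 libraries, the labels give paired-end reads only for replicate 2, whose RPKM summed to 2099302 to 2211054 per library, against 588418 to 875424 in replicate 1. The Nr1d1 livers are therefore compared within each replicate, and their fit has the replicate as a block.

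Lpl RNA was far more abundant in livers labelled Bmal1 knockout than in control livers at both times. At CT12 it stood at 59.5, 53.9 and 51.2 RPKM in the livers labelled knockout, against 3.59, 2.75 and 2.32 RPKM in the control livers. Levels at CT0 were 24.7, 84.7 and 45.4 RPKM in the livers labelled knockout, against 5.40, 8.46 and 7.16 RPKM in the control livers. Every liver labelled knockout lay above every control liver, and the livers labelled knockout at CT0 spread most widely.

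The mean at CT12 was 54.9 ± 4.20 RPKM in knockout and 2.88 ± 0.644 RPKM in control livers (SD, n = 3 each), a ratio of 19.0. At CT0 the means were 51.6 ± 30.5 RPKM in knockout and 7.01 ± 1.53 RPKM in control livers (SD, n = 3 each), a ratio of 7.36. The log2 difference was 4.05 ± 0.33 (SE) at CT12, number 4 from the top of 11439 genes. It was 2.64 ± 0.33 (SE) at CT0, number 6 from the top.

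The reads behind these values could be recovered from the steps between low RPKM values, except that 1 factor shared by all libraries is unknown. Lpl had 3528, 2939 and 2879 reads in the libraries labelled knockout at CT12, against 238, 166 and 128 reads in the control libraries. At CT0 it had 1512, 4962 and 2142 reads in the libraries labelled knockout, against 420, 662 and 498 reads in the control libraries. Counting error is thus small beside the spread between livers labelled knockout at CT0.

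**Figure D1:**
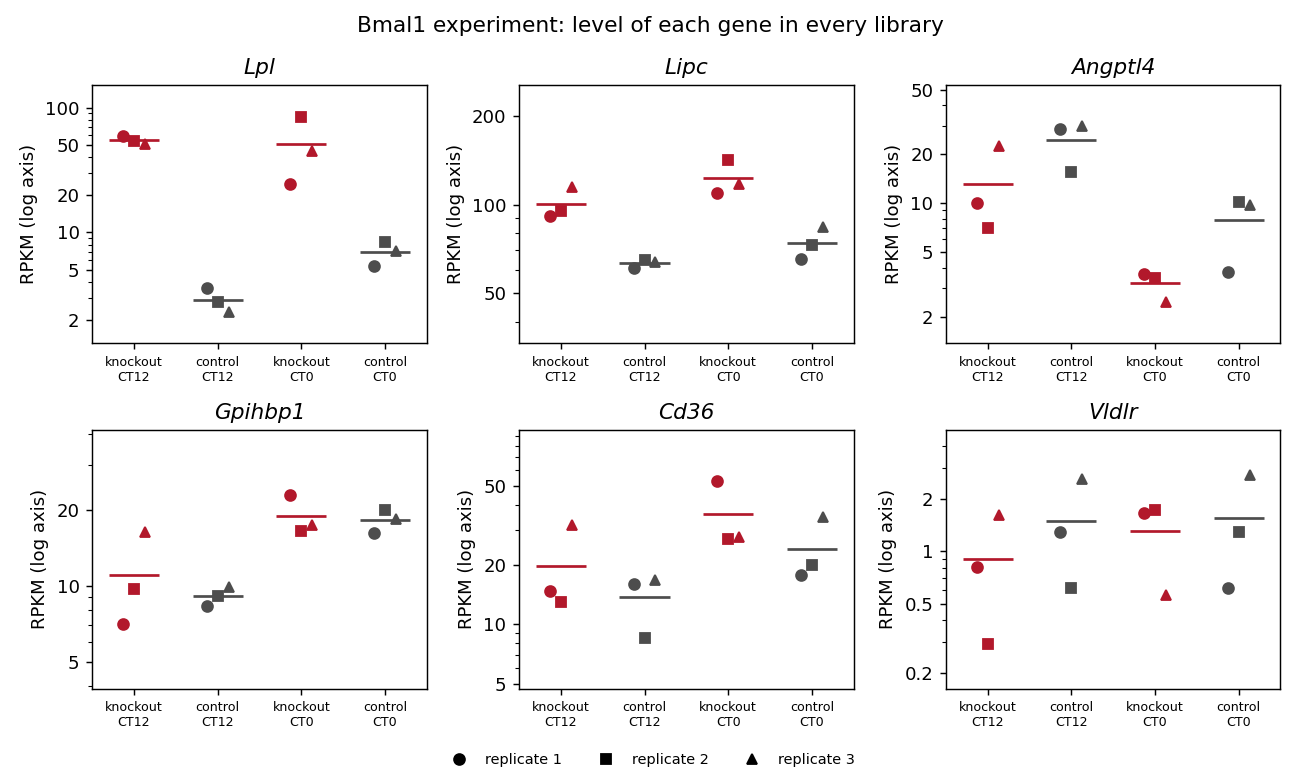
RPKM of each gene in every library of the Bmal1 experiment, on a log axis, by labelled genotype and time. Points are single livers with the replicate number as shape, and lines are group means (n = 3). Lpl and Lipc lie higher in all livers labelled knockout than in all control livers of the same time.

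The change of Lpl between the times was measured within each genotype. In livers labelled knockout the difference of CT12 minus CT0 was 0.26 ± 0.33 (adjusted p = 0.722, limma), with the CT12 livers inside the range of the CT0 livers. In control livers Lpl fell at CT12 relative to CT0 by 1.15 ± 0.33 on the log2 scale (adjusted p = 0.0478, limma), and the times did not overlap. Marker sums of other cells were lower at CT12 in the same control livers, also without overlap. Macrophage markers summed to 128 to 191 RPKM at CT12 and 208 to 273 RPKM at CT0, and endothelial markers to 83.4 to 89.3 RPKM at CT12 and 119 to 148 RPKM at CT0. Stellate cell markers summed to 108 to 126 RPKM at CT12 and 143 to 201 RPKM at CT0, and neutrophil markers to 5.94 to 8.80 RPKM at CT12 and 32.2 to 112 RPKM at CT0. Their part in the Lpl fall was not tested. These control livers are also those of the genotype comparison that Lpl was selected on. The call in control livers was lost without any single control library, and also without knockout replicate 3 at CT0 or any single knockout library at CT12 (adjusted p up to 0.151). It was also lost with a pseudocount of 1 (adjusted p = 0.0629), with no filter on RPKM (0.0838), with median-of-ratios scaling (0.0669) and with quantile normalization (0.0826). The difference between the genotypes in their time change was 1.41 ± 0.47, given without a test. Without knockout replicate 2 at CT0, the library with the highest Lpl value, it was 1.85.

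Lpl is also made by macrophages, adipocytes and muscle, and the markers of those cells were read beside it. The 8 adipocyte markers summed to 3.19 to 3.68 RPKM in knockout and 4.24 to 4.34 RPKM in control livers at CT12. At CT0 they summed to 4.02 to 4.26 RPKM in knockout and 4.60 to 5.72 RPKM in control livers. Adipoq, the defining adipocyte hormone, was at 0 in 11 of the 12 libraries and at 0.115 RPKM in the other.

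The 10 Kupffer cell or macrophage markers summed to 138 to 234 RPKM in knockout and 128 to 191 RPKM in control livers at CT12. At CT0 the sums were 184 to 270 RPKM in knockout and 208 to 273 RPKM in control livers, so that the genotypes overlapped at both times. The 7 striated muscle markers were all at 0 in the livers labelled knockout at CT12 and summed to at most 0.048 RPKM in the control livers. At CT0 they summed to at most 1.28 RPKM in knockout and 0.083 RPKM in control livers.

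The 7 neutrophil markers summed to 17.8 to 46.3 RPKM in knockout and 5.94 to 8.80 RPKM in control livers at CT12. At CT0 they summed to 104 to 219 RPKM in knockout and 32.2 to 112 RPKM in control livers. The 10 stellate cell or fibroblast markers summed to 132 to 170 RPKM in knockout and 108 to 126 RPKM in control livers at CT12. At CT0 they summed to 184 to 218 RPKM in knockout and 143 to 201 RPKM in control livers. The neutrophil and stellate sums thus did not overlap between the genotypes at CT12 and overlapped at CT0. Their part in the Lpl difference was not tested.

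**Figure D2:**
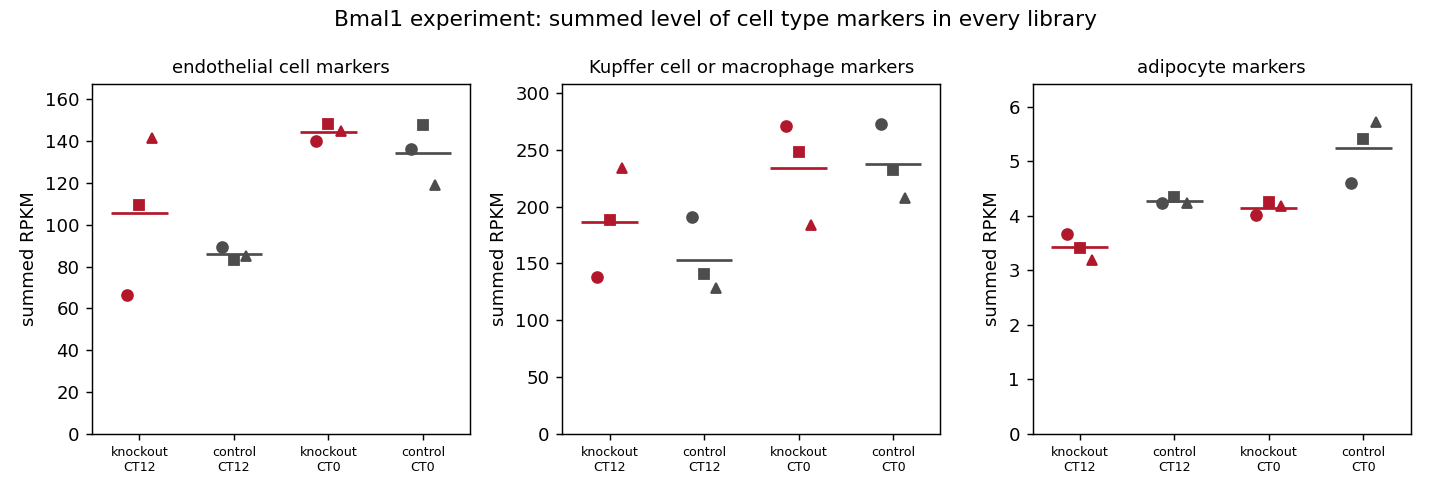
Summed RPKM of endothelial, Kupffer cell or macrophage and adipocyte markers in every library of the Bmal1 experiment, by labelled genotype and time. Points are single livers, with circles, squares and triangles for replicates 1, 2 and 3, and lines are group means (n = 3). The adipocyte sum stays between 3.19 and 5.72 RPKM in all 12 livers. Endothelial sums are 83.4 to 89.3 RPKM in control livers at CT12, and the lowest, 66.4 RPKM, is knockout replicate 1 at CT12.

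Lpl was also higher in the livers labelled Nr1d1 knockout than in their controls, in both replicates and at both times. At CT12 it stood at 11.2 and 23.6 RPKM in the livers labelled knockout (replicates 1 and 2), against 1.73 and 5.25 RPKM in the control livers. The ratios were 6.47 and 4.50 within the replicates. At CT0 Lpl stood at 4.83 and 18.4 RPKM in the livers labelled knockout, against 2.98 and 7.42 RPKM in the control livers. Within each replicate the liver labelled knockout was the higher one, though the replicates themselves differed in scale.

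The fit gave a log2 difference of 2.23 ± 0.23 at CT12 (adjusted p = 0.0395, limma), number 10 from the top of 12738 genes. Lpl was 1 of 5 genes called in that comparison, which is 0.0393% of the genes tested, and the other 5 of the 6 genes were not called. At CT0 the difference was 0.94 ± 0.23 (adjusted p = 0.873). No gene was called at CT0 (0%), although 575 genes had an unadjusted p under 0.05. The call at CT12 was lost without either control library at CT0, without either control library at CT12 and without either library labelled knockout at CT12 (adjusted p up to 0.290). The log2 difference stayed between 2.02 and 2.44 in these fits. The call was also lost with a pseudocount of 1 (adjusted p = 0.0636), no filter (0.4), median-of-ratios scaling (0.0674), quantile normalization (0.0887) and no replicate block (1).

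In livers labelled Nr1d1 knockout Lpl was higher at CT12 than at CT0 in both replicates, by 1.14 and 0.35 on the log2 scale. In control livers the same differences were -0.64 and -0.46. The difference between these changes was 1.29 ± 0.33 (adjusted p = 0.931, limma), and no gene was called in that test (0%; 538 genes had an unadjusted p under 0.05). In replicate 1 at CT12 the macrophage markers summed to 206 RPKM in the liver labelled knockout and 221 RPKM in the control liver. The adipocyte markers there summed to 4.68 RPKM in the liver labelled knockout and 4.44 RPKM in the control liver. In replicate 2 at CT12 the adipocyte sum was 25.8 RPKM in the liver labelled knockout and 30.5 RPKM in the control liver. At CT0 that sum went the other way, at 37.6 RPKM in the liver labelled knockout and 31.9 RPKM in the control liver. Adipoq was at 2.97 to 3.86 RPKM in all 4 livers of replicate 2. The macrophage sum of replicate 2 at CT12 was 860 RPKM in the liver labelled knockout and 589 RPKM in the control liver. At CT0 it was 1027 RPKM in the liver labelled knockout and 564 RPKM in the control liver. Neutrophil markers of replicate 2 summed to 10.7 RPKM in the liver labelled knockout and 2.43 RPKM in the control liver at CT12. At CT0 the neutrophil sums were 26.8 RPKM in the liver labelled knockout and 3.37 RPKM in the control liver. Stellate cell markers of replicate 2 summed to 524 RPKM in the liver labelled knockout and 305 RPKM in the control liver at CT12. At CT0 the stellate sums were 292 RPKM in the liver labelled knockout and 351 RPKM in the control liver. The part of these sums in the Lpl result of replicate 2 was not tested.

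**Figure D3:**
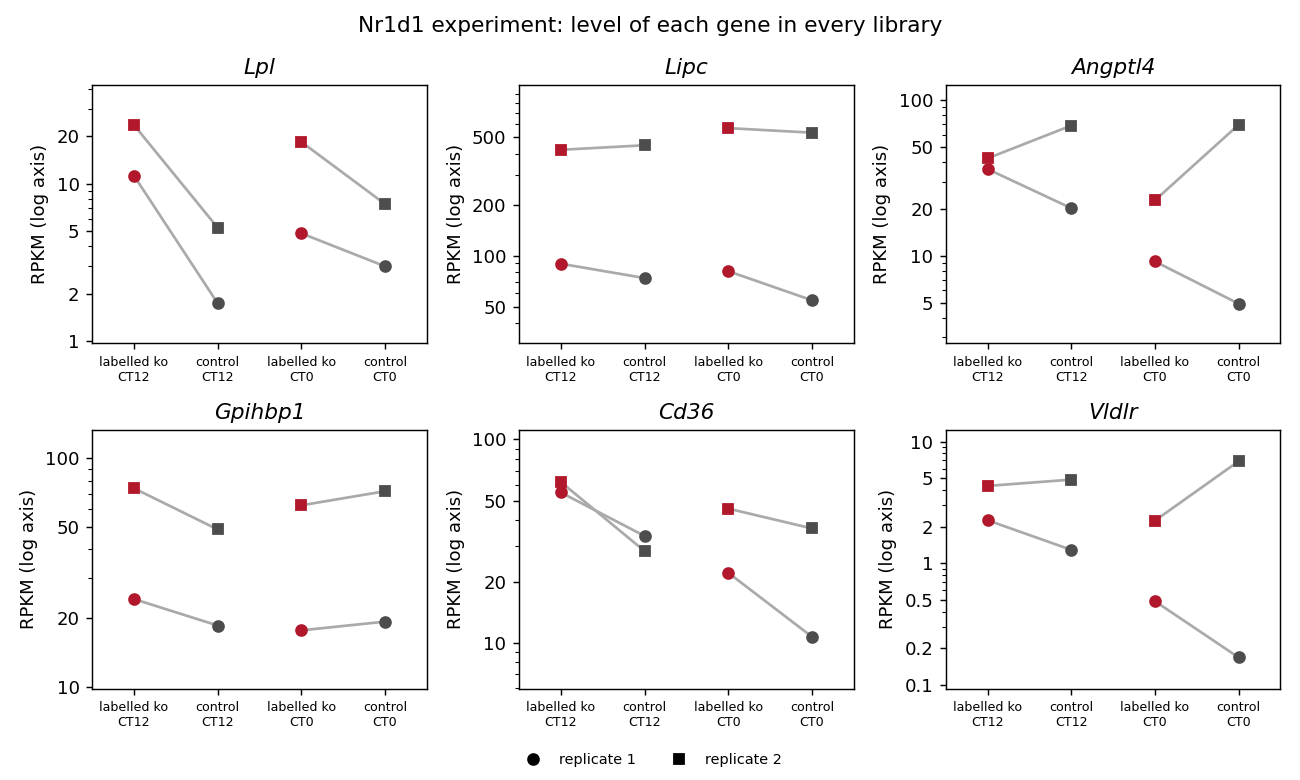
RPKM of each gene in every library of the Nr1d1 experiment, on a log axis, by label (labelled ko, labelled Nr1d1 knockout) and time. Lines join the livers labelled knockout with the control livers of the same replicate. Lpl and Cd36 are higher in the liver labelled knockout in all 4 pairs, and for Angptl4 the replicates point opposite ways.

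Hepatic lipase RNA was moderately higher in livers labelled Bmal1 knockout at both times. RefSeq lists 2 start sites for Lipc, shown here because the data bear on both genotype comparisons and the starts differ in the core site AGGTCA, which REV-ERB proteins and other nuclear receptors bind. The sequences run 5′ to 3′ from 250 bases before to 50 after the start, from build GRCm38.p6 on the minus strand, with AGGTCA or its reverse complement in capitals.
Lipc start 1, chr9:70952172-70952471: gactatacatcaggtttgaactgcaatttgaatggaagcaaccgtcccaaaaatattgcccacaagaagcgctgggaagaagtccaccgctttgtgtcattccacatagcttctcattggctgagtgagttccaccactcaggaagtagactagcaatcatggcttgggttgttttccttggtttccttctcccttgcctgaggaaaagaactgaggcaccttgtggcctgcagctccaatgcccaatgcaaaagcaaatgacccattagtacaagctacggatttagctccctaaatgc
Lipc start 2, chr9:70934759-70935058: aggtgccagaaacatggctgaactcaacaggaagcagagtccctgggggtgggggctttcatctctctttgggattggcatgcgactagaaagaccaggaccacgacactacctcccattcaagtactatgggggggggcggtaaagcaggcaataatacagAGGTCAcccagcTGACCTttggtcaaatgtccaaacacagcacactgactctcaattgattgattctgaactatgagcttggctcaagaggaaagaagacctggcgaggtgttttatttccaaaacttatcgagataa
The second window held 2 core sites on opposite strands, the first beginning at -88 relative to the start, and the first window held none. Neither held the E-box CACGTG, the word that BMAL1 and its partner bind. Over 32851 RefSeq promoters of this length, 16.3% held AGGTCA on either strand and 7.15% held CACGTG. A match is a description of the letters and not of binding. The Cd36 window held 1 core site and the Vldlr windows held none.

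Lipc stood at 91.6, 95.3 and 115 RPKM in the livers labelled knockout at CT12, against 60.7, 64.9 and 63.7 RPKM in the control livers. The CT0 values were 109, 142 and 118 RPKM in the livers labelled knockout, against 65.1, 73.1 and 83.6 RPKM in the control livers. The genotypes did not overlap at either time.

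Lipc rose in livers labelled knockout by 0.66 ± 0.12 on the log2 scale at CT12 (adjusted p = 0.00512) and by 0.73 ± 0.12 at CT0 (adjusted p = 0.0134, limma). The ratios of means were 1.59 at CT12 and 1.66 at CT0. At CT0 the call was lost without control replicate 2 (adjusted p = 0.0591) and in a fit of the CT0 livers alone (adjusted p = 0.0604). At CT12 it held without any single library (adjusted p up to 0.0236).

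Lpl and Lipc were the 2 of the 6 genes called in knockout against control livers at each time. The share of all genes called was 9.68% at CT12 and 1.62% at CT0, and the Lpl call is the one known beforehand. By direction, 6.46% of genes were called higher and 3.22% lower in livers labelled knockout at CT12, and 0.909% higher and 0.708% lower at CT0. At CT12, 66.8% of the called genes were higher in livers labelled knockout, a share that was 46.8% with median-of-ratios scaling and 52.3% with quantile normalization. The summed hepatocyte markers did not move as Lipc did. They summed to 31443 to 34592 RPKM in knockout and 43118 to 52453 RPKM in control livers at CT12. At CT0 they summed to 34603 to 39389 RPKM in knockout and 49945 to 55074 RPKM in control livers. Alb alone stood at 14012 to 16366 RPKM in knockout and 26609 to 34269 RPKM in control livers at CT12. It was thus a large part of each sum, which need not speak for the other markers.

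Lipc was not called between the times. CT12 minus CT0 was -0.29 ± 0.12 in livers labelled knockout (adjusted p = 0.235) and -0.22 ± 0.12 in control livers (adjusted p = 0.289, limma). The genotype difference of Lipc in the Nr1d1 experiment was, at CT12, 0.28 in replicate 1 and -0.09 in replicate 2. At CT0 it was 0.57 in replicate 1 and 0.09 in replicate 2. Replicate 2 gave Lipc levels of 422 and 567 RPKM in livers labelled knockout and 449 and 533 RPKM in control livers (CT12 and CT0), against 89.5 and 80.9 RPKM and 73.7 and 54.5 RPKM in replicate 1.

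Angptl4, the inhibitor, was higher at CT12 than at CT0 in both genotypes. It stood at 9.95, 7.0 and 22.6 RPKM in livers labelled knockout at CT12 and at 3.67, 3.47 and 2.46 RPKM in livers labelled knockout at CT0. In control livers it stood at 28.7, 15.5 and 29.7 RPKM at CT12 and at 3.74, 10.2 and 9.73 RPKM at CT0. Within each genotype every CT12 liver lay above every CT0 liver.

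In livers labelled knockout the difference of CT12 minus CT0 was 1.74 ± 0.43 on the log2 scale, a ratio of means of 4.12, and was not called (adjusted p = 0.0625, limma). In control livers Angptl4 rose at CT12 by 1.64 ± 0.43 (adjusted p = 0.0321, limma), a ratio of means of 3.12. The difference in livers labelled knockout was called without control replicate 1 at CT0 (adjusted p = 0.0405), and when all transcripts of each symbol were averaged (0.04998). The call in control livers was lost with no filter on RPKM (adjusted p = 0.0605), without control replicate 1 at CT0 (0.104), and without control replicate 1 (0.0989) or 3 (0.109) at CT12. The time changes of the genotypes differed by 0.09, a difference that was not called.

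Angptl4 levels were lower in knockout than in control livers, but not past the threshold. The difference was -0.99 ± 0.43 at CT12 (adjusted p = 0.184), where the genotypes overlapped. It was -1.08 ± 0.43 at CT0 (adjusted p = 0.276, limma), where every liver labelled knockout lay below every control liver. The highest liver labelled knockout at CT0 was at 3.67 RPKM and the lowest control liver at 3.74 RPKM. The replicates of the Nr1d1 experiment went opposite ways at both times. The livers labelled knockout minus the control livers gave 0.82 in replicate 1 and -0.69 in replicate 2 at CT12. At CT0 they gave 0.84 in replicate 1 and -1.59 in replicate 2.

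Gpihbp1, the anchor on endothelial cells, was lower at CT12 than at CT0 in both genotypes. At CT12 it stood at 7.06, 9.68 and 16.4 RPKM in livers labelled knockout and at 8.33, 9.07 and 9.93 RPKM in control livers. CT0 values were 22.9, 16.4 and 17.3 RPKM in livers labelled knockout and 16.2, 19.9 and 18.4 RPKM in control livers. Each CT12 liver lay below all CT0 livers of its genotype, by a narrow margin for knockout replicate 3.

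In livers labelled knockout the difference of CT12 minus CT0 was -0.82 ± 0.23 on the log2 scale and was not called (adjusted p = 0.0961, limma). Without knockout replicate 3 at CT12 it was -1.13 and called (adjusted p = 0.0188). In control livers Gpihbp1 fell by 0.95 ± 0.23 at CT12 (adjusted p = 0.0239, limma), a ratio of means of 0.502. The call in control livers was lost without control replicate 2 (adjusted p = 0.0821) or 3 (0.0699) at CT0, and without control replicate 1 (0.0767), 2 (0.0551) or 3 (0.0539) at CT12. Knockout minus control was 0.19 ± 0.23 at CT12 (adjusted p = 0.689) and 0.05 ± 0.23 at CT0 (adjusted p = 0.96).

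In the Bmal1 experiment endothelial markers moved with Gpihbp1 between the times. In livers labelled knockout the 10 markers summed to 66.4, 110 and 141 RPKM at CT12 (replicates 1, 2 and 3) and to 140 to 148 RPKM at CT0. In control livers they summed to 83.4 to 89.3 RPKM at CT12 and 119 to 148 RPKM at CT0. Knockout replicate 3 at CT12 had the highest Gpihbp1 and the highest endothelial sum of its group, and replicate 1 the lowest of both. This order was not particular to endothelial markers. In replicates 1, 2 and 3 the macrophage sums were 138, 188 and 234 RPKM and the stellate sums 132, 134 and 170 RPKM. The neutrophil sums ran the other way, at 46.3, 30.2 and 17.8 RPKM. Fewer endothelial cells and less RNA per cell cannot be told apart in whole liver, and the part of the endothelial sum in the Gpihbp1 result was not tested. The macrophage, stellate and neutrophil sums of control livers given above were lower at CT12 than at CT0 as well, without overlap.

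In livers labelled Bmal1 knockout none of the 6 genes was called between the times, beside 1.9% of all genes (0.909% higher and 0.988% lower at CT12). In control livers Lpl, Angptl4 and Gpihbp1 were called between the times, 3 of the 6 genes, beside 10.8% of all genes tested (3.4% higher and 7.43% lower at CT12). Of all genes called in control livers, 31.4% were higher at CT12, a share that was 52.1% with median-of-ratios scaling and 49.1% with quantile normalization. By the limma test of the difference between the genotypes in their time change, none of the 5 genes other than Lpl was called, beside 1.31% of all genes, and Lpl is given without a test. Unadjusted, 2202 of the 11439 genes had a p under 0.05 between the times in livers labelled knockout, and 1356 in the test of the difference. In the Nr1d1 experiment none of the 6 was called between CT12 and CT0, beside 0.055% of genes in livers labelled knockout and 0.353% in control livers. Unadjusted p-values under 0.05 numbered 1833 and 1031 there. The median of all genes was 0.16 on the log2 scale in livers labelled knockout.

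Gpihbp1 in the Nr1d1 experiment was higher at CT12 in the livers labelled knockout in both replicates, at 24.2 and 74.0 RPKM against 18.5 and 48.8 RPKM in the control livers. At CT0 it was lower in both, at 17.6 and 62.3 RPKM in the livers labelled knockout against 19.3 and 71.8 RPKM in the control livers. The fitted differences were 0.49 ± 0.19 at CT12 (adjusted p = 0.9998) and -0.16 ± 0.19 at CT0 (adjusted p = 0.920), and the test of their difference was not called (0.65 ± 0.27, adjusted p = 0.964, limma). Endothelial sums in replicate 2 were 483 RPKM in the liver labelled knockout and 359 RPKM in the control liver at CT12. At CT0 they were 410 RPKM in the liver labelled knockout and 507 RPKM in the control liver. Within replicate 2 the sum thus went the way Gpihbp1 did at each time. In replicate 1 it was 145 RPKM in the liver labelled knockout and 139 RPKM in the control liver at CT12. At CT0 the replicate 1 sums were 106 RPKM in the liver labelled knockout and 104 RPKM in the control liver. In replicate 1 the sum thus went the way Gpihbp1 did at CT12 and not at CT0.

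**Figure D4:**
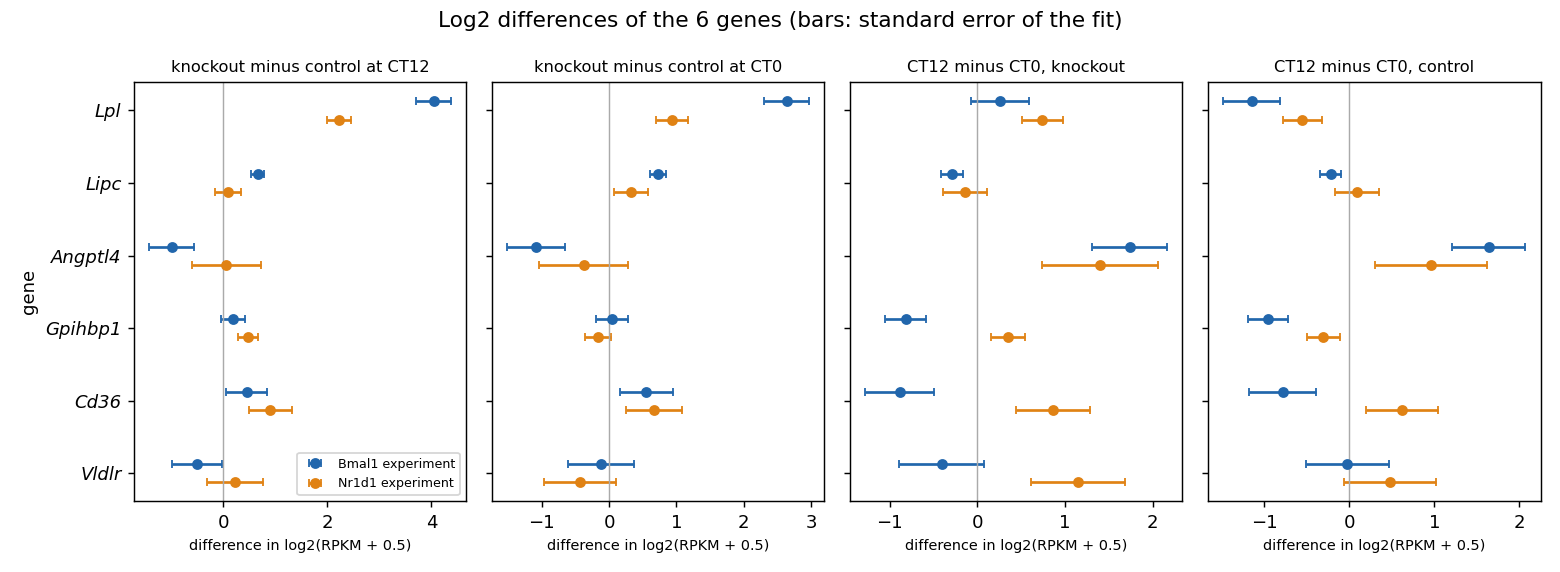
Log2 differences of the 6 genes from the limma fits, with bars for the standard error, in the Bmal1 experiment (blue) and the Nr1d1 experiment (orange), with the genotypes as labelled. The panels show knockout minus control at CT12 and CT0, then CT12 minus CT0 in knockout and control livers. Lpl stands at 4.05 and 2.64 in livers labelled Bmal1 knockout, and at 2.23 and 0.94 in livers labelled Nr1d1 knockout. Gpihbp1 and Cd36 lie below 0 between CT12 and CT0 in both genotypes of the Bmal1 experiment.

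Cd36, the fatty acid transporter, was not called in any comparison. Its CT12 values were 14.7, 12.9 and 31.8 RPKM in livers labelled Bmal1 knockout, against 16.0, 8.49 and 16.8 RPKM in control livers. At CT0 it stood at 53.3, 26.9 and 27.6 RPKM in livers labelled knockout, against 17.7, 19.9 and 34.7 RPKM in control livers. The genotypes overlapped at both times. Knockout minus control was 0.45 ± 0.39 at CT12 (adjusted p = 0.535) and 0.56 ± 0.39 at CT0 (adjusted p = 0.598, limma). CT12 minus CT0 was -0.89 ± 0.39 in livers labelled knockout (adjusted p = 0.242) and -0.78 ± 0.39 in control livers (adjusted p = 0.227). In control livers the times did not overlap.

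Cd36 was higher in the liver labelled Nr1d1 knockout in all 4 pairs of that experiment. At CT12 it stood at 54.8 and 61.7 RPKM in the livers labelled knockout, against 33.5 and 28.3 RPKM in the control livers. At CT0 it stood at 22.1 and 45.7 RPKM in the livers labelled knockout, against 10.7 and 36.5 RPKM in the control livers. The fitted differences of 0.91 ± 0.42 at CT12 and 0.67 ± 0.42 at CT0 did not pass the threshold (adjusted p = 0.9998 at CT12 and 0.873 at CT0, limma). The 4 deposited Cd36 transcripts had mean levels of 27.5 to 28.7 RPKM over the 20 libraries. Their knockout minus control differences in the Bmal1 experiment lay within 0.44 to 0.45 at CT12 and 0.54 to 0.56 at CT0. The choice of transcript therefore did not matter for Cd36.

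Vldlr was the least abundant of the 6 genes in RPKM. It stood at 0.806, 0.293 and 1.61 RPKM in livers labelled Bmal1 knockout at CT12, against 1.28, 0.616 and 2.60 RPKM in control livers. At CT0 it stood at 1.65, 1.72 and 0.564 RPKM in livers labelled knockout, against 0.615, 1.29 and 2.75 RPKM in control livers. The recovered reads were 3 to 17 in knockout and 7 to 27 in control libraries at CT12. At CT0 they were 5 to 19 in knockout and 9 to 36 in control libraries.

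The knockout minus control difference of Vldlr was -0.50 ± 0.49 at CT12 (adjusted p = 0.593) and -0.12 ± 0.49 at CT0 (adjusted p = 0.953, limma). Among the 5 deposited transcripts the difference ran between -0.50 and 0.55 at CT12 and between -0.12 and 0.74 at CT0, so that its sign depended on the transcript. Vldlr in the Nr1d1 experiment stood at 2.26 and 4.32 RPKM in livers labelled knockout at CT12, against 1.29 and 4.87 RPKM in control livers. At CT0 it stood at 0.488 and 2.24 RPKM in livers labelled knockout, against 0.168 and 6.90 RPKM in control livers. Replicate 1 was higher and replicate 2 lower in the liver labelled knockout at both times.

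The order of the levels across the 4 groups of the Bmal1 experiment differed from gene to gene. For Lpl the order by mean was knockout CT12, knockout CT0, control CT0 and control CT12, and only the knockout groups overlapped as neighbours. For Lipc it was knockout CT0, knockout CT12, control CT0 and control CT12, with the same single overlap. Angptl4 ran the other way, with control CT12 highest and knockout CT0 lowest, and only control CT0 and knockout CT0 failed to overlap as neighbours. Gpihbp1 and Cd36 shared the order knockout CT0, control CT0, knockout CT12 and control CT12, with overlap between all neighbours. For Vldlr all neighbouring groups overlapped.

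Likeness of pattern was measured across the 12 Bmal1 libraries as the root mean square difference of log2 values after each gene's mean was removed, over 11438 other genes. The gene most like Lpl was the cytochrome P450 Cyp2c55 (0.68), with means of 40.6 RPKM in knockout and 3.46 RPKM in control livers at CT12. The defensin Defb1 (0.70), the neurotrophin receptor Ntrk2 (0.70), the phosphate transporter Slc34a2 (0.70) and the glutathione transferase Gstm2 (0.76) came next. Lpl itself deviated from its mean by 1.77. Nearest to Lipc were Pkhd1 (0.17) and Ccni (0.17), and nearest to Angptl4 were St3gal5 (0.49) and Fkbp5 (0.52). Gpihbp1 was nearest to Lhfpl2 (0.13) and Elk3 (0.15), Cd36 to 1700106N22Rik (0.33) and Acss3 (0.33), and Vldlr to Cyp2c38 (0.26). These genes come from the same libraries, so a shared library effect would show as likeness. For Lpl the likeness also rests on the genotype difference that it was selected on.

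The other regulators and partners of lipoprotein lipase were read as a list beside Lpl. All 13 genes of that list were tested, among them the activator Apoc2, the inhibitor Apoc3 and the maturation factor Lmf1. None was called in any comparison of either experiment. Between Bmal1 genotypes 9.68% of all genes were called at CT12 and 1.62% at CT0, and 10.8% between times in control livers. In the Nr1d1 experiment at most 0.353% were called in any comparison. With such shares, 0 of 13 says little about the list. At CT12 their median knockout minus control difference was 0.15 in the Bmal1 experiment, against 0.09 for all genes tested, and at CT0 it was 0.08 against 0.01.

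Among 10 tested genes of other lipases, 1 rose and 2 fell in livers labelled Bmal1 knockout at CT12, and none was called at CT0. The share of all genes called was 9.68% at CT12 and 1.62% at CT0. Endothelial lipase, Lipg, fell by 1.60 ± 0.30 on the log2 scale (adjusted p = 0.00468). The monoglyceride lipase Mgll fell by 1.05 ± 0.22 (adjusted p = 0.0102). The phosphatidylserine phospholipase Pla1a rose by 0.55 ± 0.12 (adjusted p = 0.0102, limma). The median of the list was -0.26 at CT12, against 0.09 for all genes. In control livers Lipg rose at CT12 relative to CT0 by 1.59 ± 0.30 and the triglyceride lipase Pnpla2 by 0.62 ± 0.12, while the lysosomal lipase Lipa fell by 0.53 ± 0.13. The Lipa call was lost without control replicate 2 or 3 at CT0 or replicate 2 at CT12 (adjusted p up to 0.0776).

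Of 18 tested genes of other lipoprotein receptors and fatty acid carriers, 1 was called between Bmal1 genotypes at CT12, beside 9.68% of all genes. None was called at CT0, beside 1.62% of all genes. Fabp1, the liver fatty acid binding protein, fell in livers labelled Bmal1 knockout at CT12 by 1.05 ± 0.29 (adjusted p = 0.0405, limma). Its call was lost without any single control library and without knockout replicate 1 or 2 at CT12 (adjusted p up to 0.133). It was also lost with no filter on RPKM (adjusted p = 0.09), with quantile normalization (0.09) and with a replicate block (0.053). The median of the list was 0.10 at CT12, against 0.09 for all genes. The heparan sulfate proteoglycan Sdc1, which binds lipoprotein remnants on hepatocytes, fell at CT12 relative to CT0 by 0.77 ± 0.16 in livers labelled knockout (adjusted p = 0.0372) and by 0.64 ± 0.16 in control livers (adjusted p = 0.029). In livers labelled knockout the Sdc1 call was lost without knockout replicate 1 or 3 at CT0, without any single knockout library at CT12, without control replicate 2 at CT0 and without control replicate 3 at CT12 (adjusted p up to 0.117). It was also lost with no filter on RPKM (adjusted p = 0.0641) and with the livers labelled knockout fitted alone (0.113). In control livers it was lost without control replicate 1 or 2 at CT0 and without control replicate 2 or 3 at CT12 (adjusted p up to 0.0977).

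The receptors of the PPAR family, which control many genes of fatty acid uptake and oxidation, changed in both directions in livers labelled Bmal1 knockout at CT12. Of 13 tested genes in the PPAR and lipid droplet list, 2 rose and 4 fell at CT12, and none rose and 3 fell at CT0. Over all genes 6.46% rose and 3.22% fell at CT12, and 0.909% rose and 0.708% fell at CT0. At CT12 Ppard rose by 1.59 ± 0.27 (adjusted p = 0.0029) and Pdk4, a kinase that limits glucose oxidation, by 1.53 ± 0.26 (adjusted p = 0.00305). Ppara fell by 1.06 ± 0.12 (adjusted p = 0.000167, limma) and Pparg by 0.92 ± 0.21 (adjusted p = 0.0153). The mitochondrial carnitine transferase Cpt1a fell by 0.52 ± 0.15. The median of the list was -0.18 at CT12 and -0.30 at CT0, against 0.09 and 0.01 for all genes.

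At CT0 Cpt1a fell by 0.70 ± 0.15 and Ppara fell by 0.63 ± 0.12 in livers labelled knockout. The CT0 call of Ppara was lost without knockout replicate 1 or 3 or any single control library at CT0 (adjusted p up to 0.101). That of Cpt1a was lost without knockout replicate 1 or 3 or control replicate 2 or 3 at CT0, and without knockout replicate 2 or control replicate 1 at CT12 (adjusted p up to 0.154). It was also lost with no filter on RPKM (adjusted p = 0.0725) and in a fit of the CT0 livers alone (0.0958). At CT12 the Pparg call was lost without knockout replicate 1 or 3 or control replicate 1 of that time (adjusted p up to 0.0607), and in a fit of the CT12 livers alone (0.0648). The Cpt1a call at CT12 was lost without 7 of the 12 libraries (adjusted p up to 0.165), namely knockout replicates 1 and 2 and control replicates 1 and 3 at CT12, and knockout replicate 3 and control replicates 2 and 3 at CT0. With no filter its adjusted p was 0.0777, and in a fit of the CT12 livers alone 0.056. Angptl4, Cd36, Vldlr and Lpl are known targets of PPAR receptors in several tissues. Lpl was selected on its genotype difference, and Angptl4, Cd36 and Vldlr were not called between Bmal1 genotypes at either time. The share of all genes called was 9.68% at CT12 and 1.62% at CT0.

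Between CT12 and CT0 in livers labelled knockout Cpt1a rose by 1.04 ± 0.15 and Plin4, a lipid droplet coat protein, by 1.48 ± 0.25, and no gene of the list was called lower. Both calls were lost in a fit of the livers labelled knockout alone (adjusted p = 0.0581 and 0.0794), and that of Plin4 without knockout replicate 3 at CT0 (0.0525). In control livers Cpt1a rose by 0.86 ± 0.15, Plin4 by 1.36 ± 0.25 and Ppara by 0.71 ± 0.12. In the same control livers Pdk4 fell by 1.99 ± 0.26, Ppard fell by 1.68 ± 0.27 and the coat protein Plin2 fell by 1.13 ± 0.19 (adjusted p of 0.000616 to 0.00502 over these 6 genes, limma). In the Nr1d1 experiment no gene of the 4 lists was called between genotypes, beside 0.0393% of all genes at CT12 and 0% at CT0. The single call there was Ppard, which fell by 1.71 ± 0.25 at CT12 in control livers (adjusted p = 0.0444). It was lost with no replicate block (adjusted p = 1), without any single control library and without either library labelled knockout at CT0 (up to 0.331). A pseudocount of 1 (adjusted p = 0.0543), no filter (0.332), median-of-ratios scaling (0.062) and quantile normalization (0.072) also ended it.

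**Figure D5:**
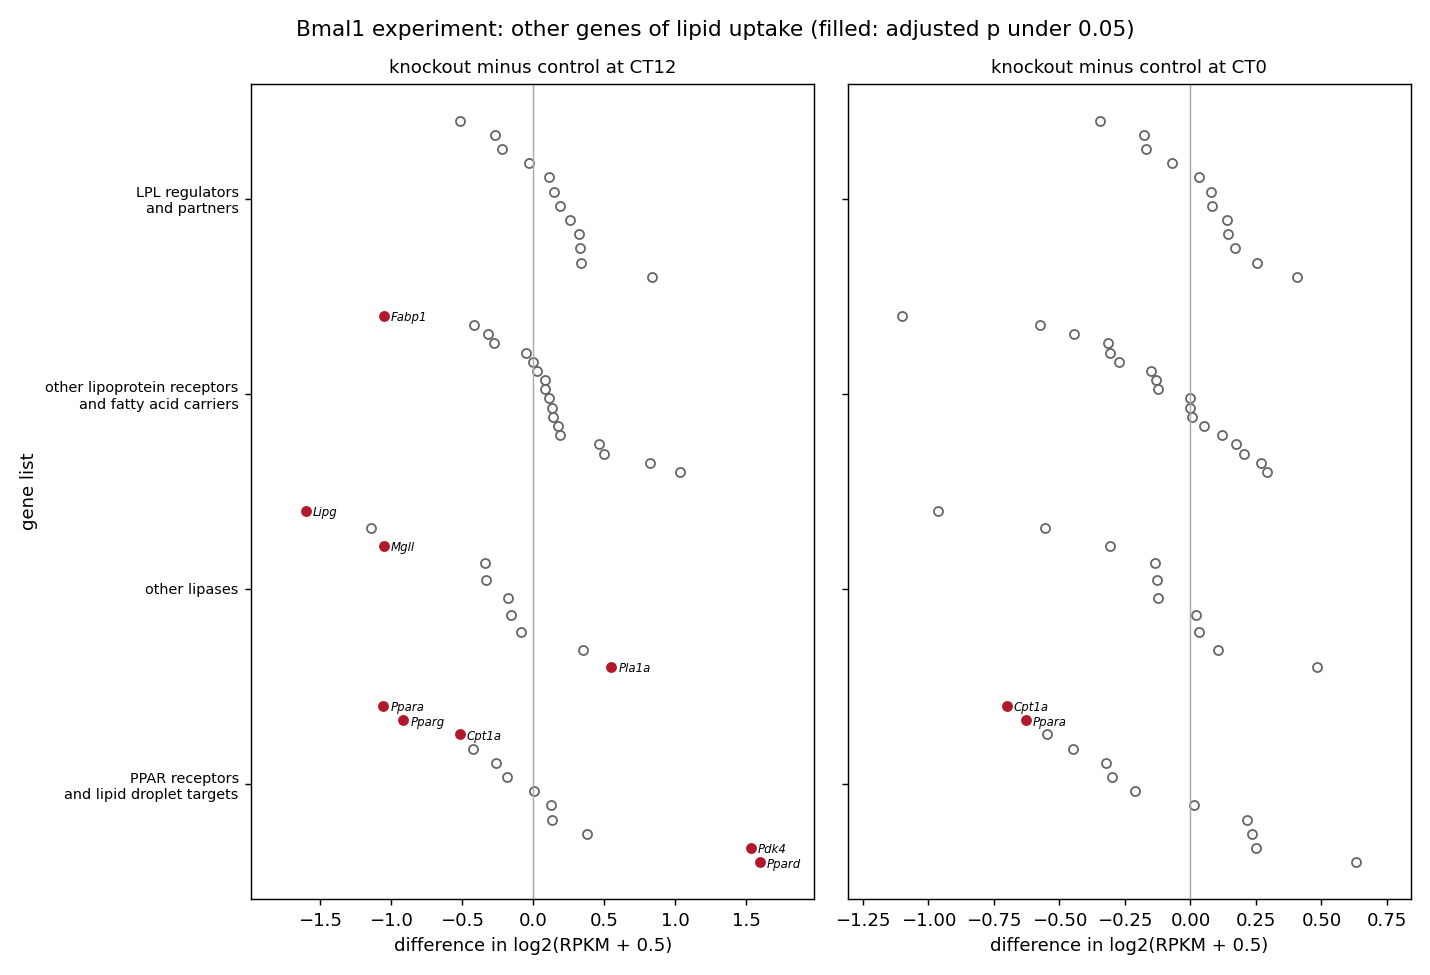
Knockout minus control differences in log2(RPKM + 0.5) of other genes of lipid uptake in the Bmal1 experiment, at CT12 (left) and CT0 (right), by list. Each point is a gene reported here, filled where the adjusted p was under 0.05. No regulator or partner of LPL is filled, and in the PPAR list Ppard and Pdk4 lie at 1.59 and 1.53 at CT12 while Ppara lies at -1.06.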

How the data were processed

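RNA-seq values were deposited by the authors as RPKM, 1 value per Ensembl transcript and library. Per the submitters' processing notes, the build was mm9 and the tools were TopHat2, bedtools 2.19.1 and, except for replicate 2 of the Nr1d1 experiment, Bowtie. What each tool did, and the annotation, read filters and strand setting, are not stated. The 46585 transcripts common to all 20 libraries were joined, and each symbol was read from its transcript of highest mean log2 level.

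Genes with a mean of at least 0.5 RPKM were tested with limma 3.58.1 (R 4.3.3) on log2(RPKM + 0.5), two-sided, in 1 fit of 4 group means per experiment. The p-values were adjusted by Benjamini-Hochberg over all 11439 genes (Bmal1) or 12738 genes (Nr1d1). The step was tested on simulated data. The Nr1d1 fit has the replicate number as a block, since only replicate 2 is labelled paired-end. Deviations from group means correlated at 0.817 to 0.878 between libraries of the same number there, and at -0.06 to 0.12 in the Bmal1 experiment. All 6 genes passed the filter.

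The text names the 6 genes, Arntl and Nr1d1 as targets, genes of 4 lists where called (list counts include genes not reported here), and the 5 genes (Lpl) or up to 2 genes (others) most alike in pattern. The genes and lists were chosen with earlier results of these data known. Reads were recovered within a tolerance of 0.05, and 95.2% of low Bmal1 transcripts came out whole. Relative depth of the Bmal1 libraries was 0.607 to 1.01 of control replicate 1 at CT0. Lipc and Cd36 could not be resolved into reads. Promoters came from RefSeq (GRCm38.p6), where 3 of the 6 symbols matched. Alternatives were the pseudocount, the filter, the scaling, the transcript choice, the block, the samples fitted and single libraries left out.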

Additional observations from a re-analysis of the deposited data

How the results depend on the processing

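Of 468 values of the 6 genes under alternative settings, 449 kept their direction and side of the threshold, as did 528 of 600 with 1 library left out. Most of the 60 results behind these values were not called, and an uncalled result that stayed uncalled counts as kept. The totals thus say little about how firm the calls are. A call was lost in 11 values under alternative settings and in 25 with 1 library left out. Neither Lpl nor Lipc changed direction between Bmal1 genotypes. A replicate block in the Bmal1 fit left 2 of the 6 genes called at CT12 (1041 of all 11439 genes) and 2 at CT0 (172). Lpl, selected on that difference, was among them at both times. Between times the block left 0 of the 6 called in livers labelled knockout (180 of all genes) and 3 in control livers (1161). For the difference of time changes it left 0 (121 of all genes). The Fabp1 call was lost with the block (adjusted p = 0.053). The deviations of same-numbered livers gave no sign of pairing there.

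With 1 library left out, the number of the 6 genes called at CT0 between Bmal1 genotypes ran from 1 to 2, and all genes called from 82 to 208. At CT12 all genes ran from 715 to 1240. Between times the 6 genes gave 0 to 1 and all genes 48 to 233 in livers labelled knockout, and 0 to 3 and 634 to 1372 in control livers. The difference of time changes gave 0 to 1 (Lpl, otherwise given without a test) and 81 to 139. In the Nr1d1 experiment all genes gave 0 to 4 at CT12 (the 6 genes 0 to 1) and 0 to 3 at CT0. They gave 1 to 15 between times in livers labelled knockout, 11 to 65 in control livers and 0 to 4 for the difference.

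Dropping the RPKM filter gave 116 called genes at CT0 in the Bmal1 experiment, and 1 of the 6 between times in control livers (997 over all genes). In the Nr1d1 experiment it called 0 at CT12, 1 between times in livers labelled knockout and 8 in control livers. With the compared groups alone, the Bmal1 fits called 108 genes (1 of the 6) at CT0 and 25 between times in livers labelled knockout. The Nr1d1 fits then called 38 at CT12, 6 at CT0, 148 between times in livers labelled knockout (2 of the 6) and 127 in control livers. Averaging transcripts called 1 of the 6 between times in livers labelled Bmal1 knockout (306 over all genes). For Nr1d1 at CT12, the 6 genes gave 0 calls with a pseudocount of 1 (1 over all genes), median-of-ratios scaling (2), quantile normalization (2) and no replicate block (0). Without the block 0 genes were called between times in either genotype. Median-of-ratios scaling called 1 gene at CT0. Between times in livers labelled knockout, 3 were called with a pseudocount of 0.1, and 4 with median-of-ratios scaling or quantile normalization. The cause of these changes was not tested. Of genes called between times in Nr1d1 control livers, 48.9% were higher at CT12, against 37.5% and 34% with the 2 scalings.

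Only uncalled differences turned sign. Vldlr gave 0.18 at CT0 between Bmal1 genotypes with transcripts averaged, and 0.042 and 0.15 between times in control livers under median-of-ratios scaling and quantile normalization. Lipc gave -0.015 and -0.037 between times in Nr1d1 control livers under the same settings. With 1 library left out, the differences of uncalled genes that turned sign ran as follows. Between Bmal1 genotypes Gpihbp1 gave -0.129 to 0.45 at CT12 and -0.097 to 0.138 at CT0, and Vldlr gave -0.49 to 0.282 at CT0. Between times Lpl gave -0.178 to 0.702 in livers labelled Bmal1 knockout and Vldlr -0.404 to 0.376 in Bmal1 control livers. The difference of time changes in that experiment was -0.367 to 0.528 for Angptl4, -0.495 to 0.217 for Cd36, -0.176 to 0.404 for Gpihbp1 and -0.165 to 0.042 for Lipc. Between Nr1d1 labels at CT12 the ranges were -0.939 to 1.064 for Angptl4, -0.236 to 0.426 for Lipc and -0.449 to 0.919 for Vldlr. At CT0 they were -1.685 to 0.93 for Angptl4, -0.036 to 1.367 for Cd36, -0.04 to 0.695 for Lipc and -1.524 to 0.656 for Vldlr. Between times in Nr1d1 control livers they were -0.35 to 2.265 for Angptl4, -0.083 to 1.32 for Cd36, -0.275 to 0.46 for Lipc and -0.612 to 1.569 for Vldlr, and for Lipc in livers labelled knockout -0.471 to 0.191. The difference of time changes there was -0.867 to 1.748 for Angptl4, -0.459 to 0.943 for Cd36, -0.6 to 0.135 for Lipc and -0.421 to 1.759 for Vldlr. Precision is limited by 2 livers per group in the Nr1d1 experiment and by 3 to 36 recovered reads for Vldlr in the Bmal1 experiment.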
